A study of Arabidopsis thaliana with 12 samples.

Results

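Wild-type anthers of Arabidopsis thaliana labelled bicellular were compared with wild-type anthers labelled pollen mitosis I (PMI), gene by gene. Of the 12 arrays of the series, the 4 compared in this step were chosen by their labels alone: 2 of wild type at PMI and 2 of wild type at the bicellular stage. All 4 came from the line used as wild-type control, and no treatment was applied. Its source is named Glabra while its array titles name Ler, so the labels do not settle its background. Each RNA was from anther plus filament of plants kept at 22 °C with 22 h of light and 2 h of dark. The titles also carry numbers that no label explains, from 3 to 5 on the PMI arrays, from 6 to 7 on the bicellular arrays and from 8 to 10 on the arrays labelled pollen mitosis II (PMII). The remaining arrays were wild type at PMII and the ms35 mutant at the same 3 stages, 2 arrays each. The ms35 line, labelled as Ler-0 in background, carries a mutation of MYB26, a factor needed for anther wall thickening and opening. Its untreated PMI and bicellular arrays are compared with wild type once below. All 12 arrays, those of ms35 and PMII included, also set the variance used to test each probe set.

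In the anther, the tapetum is the layer that feeds the developing microspores and supplies the wall and coat of the pollen grain, and it breaks down as the grains mature. Pollen mitosis I divides the microspore into a vegetative and a generative cell, which gives bicellular pollen, and pollen mitosis II later divides the generative cell into a pair of sperm. In the usual order of these stages, transcripts of the mature grain and of the pollen tube accumulate after the first division, while tapetal transcripts decline.

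The 4 arrays were close in brightness and in a sign of RNA quality. Signal is the deposited brightness of a probe set, a group of short probes for a transcript, and its median was 37.3 and 37.9 on the PMI arrays and 39.4 and 41.2 on the bicellular arrays. The GAPDH control, whose 3' over 5' signal is a sign of RNA integrity, gave ratios of 1.82 and 1.53 at PMI and 1.72 and 1.50 at bicellular, within a range over the series from 1.29 to 2.86. Across probe sets the log2 signals of the PMI pair correlated with r = 0.929 and those of the bicellular pair with r = 0.937, against 0.756 to 0.814 between the stages. The first principal component of all 12 arrays placed the PMI arrays at -90.4 and -93.2, the bicellular arrays at 22.5 and 36.1 and the wild-type PMII arrays at 77.8 and 46.5. The labels number the replicates without saying whether they were separate plants. Unless stated otherwise, the p-values reflect only how far replicates spread within their groups over all 12 arrays, not the 4 compared arrays alone. That spread may be technical.

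The marker genes ran against the usual order of the labelled stages. The summed signal of the 18 measured late pollen and pollen tube genes was 5467 and 5714 at PMI, 1088 and 753.1 at bicellular, and 531.7 and 818.8 at PMII. That of the 10 measured tapetum and pollen wall genes was 1030 and 1131 at PMI, 5858 and 7297 at bicellular, and 9490 and 10920 at PMII. Late pollen signal was thus highest, and tapetal signal lowest, in the arrays labelled PMI, and the stage names below are those of the labels. Anther tissue was represented in all 4 arrays: the signals of EMS1 and SPL, which specify anther cell layers and sporogenous cells, summed to 478.6 and 418.9 at PMI and to 434.1 and 501.8 at bicellular. The 3 measured carpel and perianth genes summed to 89.9 and 113 at PMI and to 66.7 and 98.0 at bicellular, and no gene of the vascular and filament list had a named probe set. In whole anthers, fewer cells of a type and less RNA per cell cannot be told apart.

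**Figure D1:**
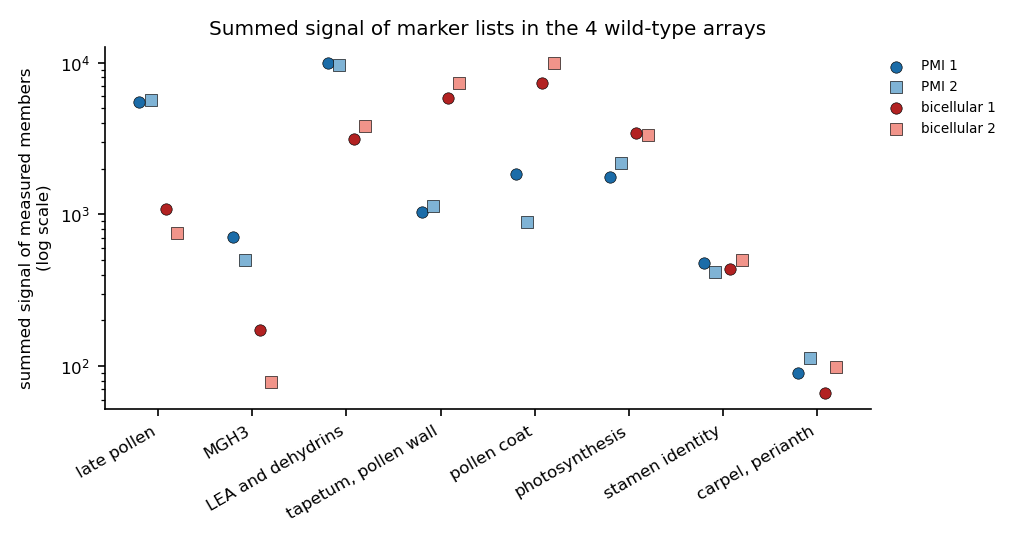
Summed signal of the measured members of 8 marker lists (log axis) in each of the 4 wild-type arrays, blue for PMI and red for bicellular, circles for replicate 1 and squares for replicate 2. The late pollen, MGH3 and LEA sums are higher in both PMI arrays, the tapetum, pollen coat and photosynthesis sums are higher in both bicellular arrays, and the stamen identity and carpel sums overlap between the stages.

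Between these stages 2977 of 16464 tested probe sets changed (18.1%; limma, Benjamini-Hochberg adjusted p under 0.05), of which 1776 were higher at bicellular (10.8% of those tested) and 1201 lower (7.29%). All 2977 had non-overlapping arrays, as had 62.3% of the tested probe sets. The median change of all tested probe sets was 0.14 on the log2 scale, and with each array centred on its median 1303 were higher and 1425 lower. Decreases were deeper than increases: the median called decrease was -1.69 and the median called increase 1.21 on the log2 scale. A change of at least 4 on that scale was called for 149 probe sets that were lower and 33 that were higher. Both bicellular arrays lay under the low-signal limit of 25.5 for 302 of the called decreases, and both PMI arrays did for 263 of the called increases. Leaving out 1 of the 4 arrays leaves 1 in its group, which makes the step less precise whichever array is removed. This also holds for the single-gene calls lost in that way below. The count of calls was lower without each of the 4 arrays. It was 1686 without PMI replicate 1, 1401 without PMI replicate 2, 1706 without bicellular replicate 1 and 1056 without bicellular replicate 2.

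**Figure D2:**
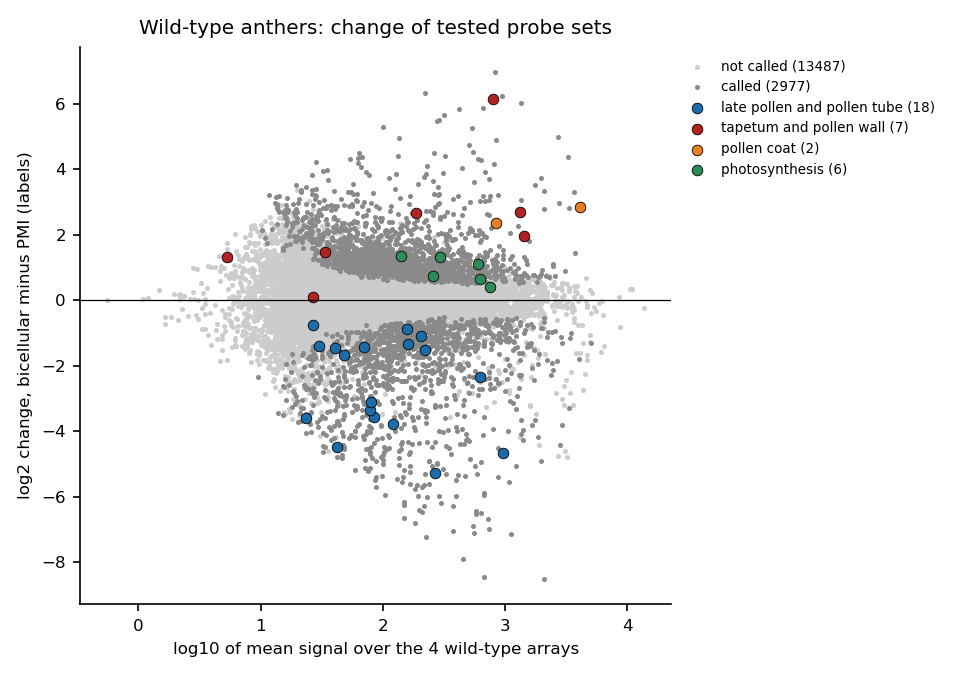
Log2 change from PMI to bicellular (labels; y axis) against the log10 of the mean signal over the 4 wild-type arrays (x axis) for the 16464 tested probe sets, with 4 marker lists coloured. All 18 late pollen points lie below 0 and the tapetum, pollen coat and photosynthesis points lie above it.

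Transcripts of the vegetative cell and the pollen tube were lower in the bicellular arrays. Of 56 late pollen and pollen tube genes listed, 18 had a named probe set and passed the low-signal filter. Of these 18, 10 fell and none rose (55.6% called, beside 18.1% of all probe sets). The median change was -2.0 against 0.14 over all tested probe sets. The actin-bundling LIM protein PLIM2a had signals of 391 and 667 at PMI and 8.91 and 13.4 at bicellular, a fall of 5.28 ± 0.91 (SE, log2; adjusted p = 0.00281). AtVEX1, also named SWEET5, a transporter of the vegetative cell, had 1986 and 1728 at PMI and 122 and 41.4 at bicellular, a fall of 4.66 ± 0.78 (adjusted p = 0.00254). Both genes were bright in each PMI array and low in each bicellular array. The receptor kinase ANX1, which keeps the growing pollen tube intact, had 98.6 and 66.8 at PMI and 0.970 and 2.15 at bicellular, a fall of 4.48 ± 0.86 (adjusted p = 0.00500). AT4G39110 fell by 3.78 ± 0.65 (adjusted p = 0.00296), with signals of 254 and 199 at PMI and of 21.6 and 9.28 at bicellular. ANX1 and AT4G39110 were above the low-signal limit of 25.5 in both PMI arrays and in neither bicellular array.

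AT3G19020 and AT1G49490 had falls of 3.35 ± 0.97 (adjusted p = 0.0327) and 3.11 ± 0.72 (adjusted p = 0.0116). PLIM2b, the paralogue of PLIM2a, had 991 and 1093 at PMI and remained measurable at bicellular, with 225 and 185, a fall of 2.34 ± 0.39 (adjusted p = 0.00240). Among the tested members that did not pass, ANX2 had -3.59 ± 1.21 (adjusted p = 0.0583) and the pectate lyase gene AT59 had -3.56 ± 1.30 (adjusted p = 0.0799). The pollen MADS-box factors AGL104 (-1.08 ± 0.37, adjusted p = 0.0639) and AGL66 (-0.88 ± 0.31, adjusted p = 0.0695) also did not pass. The number of late pollen genes called lower was 5 without PMI replicate 1, without PMI replicate 2 or without bicellular replicate 2. ANX1 lost its call without PMI replicate 1 (adjusted p = 0.0520), AT1G49490 without either PMI array (0.0643 and 0.0626) or bicellular replicate 2 (0.0733), and AT3G19020 without any single one of the 4 arrays (0.122 to 0.143) and without the variance trend (0.0647).

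**Figure D3:**
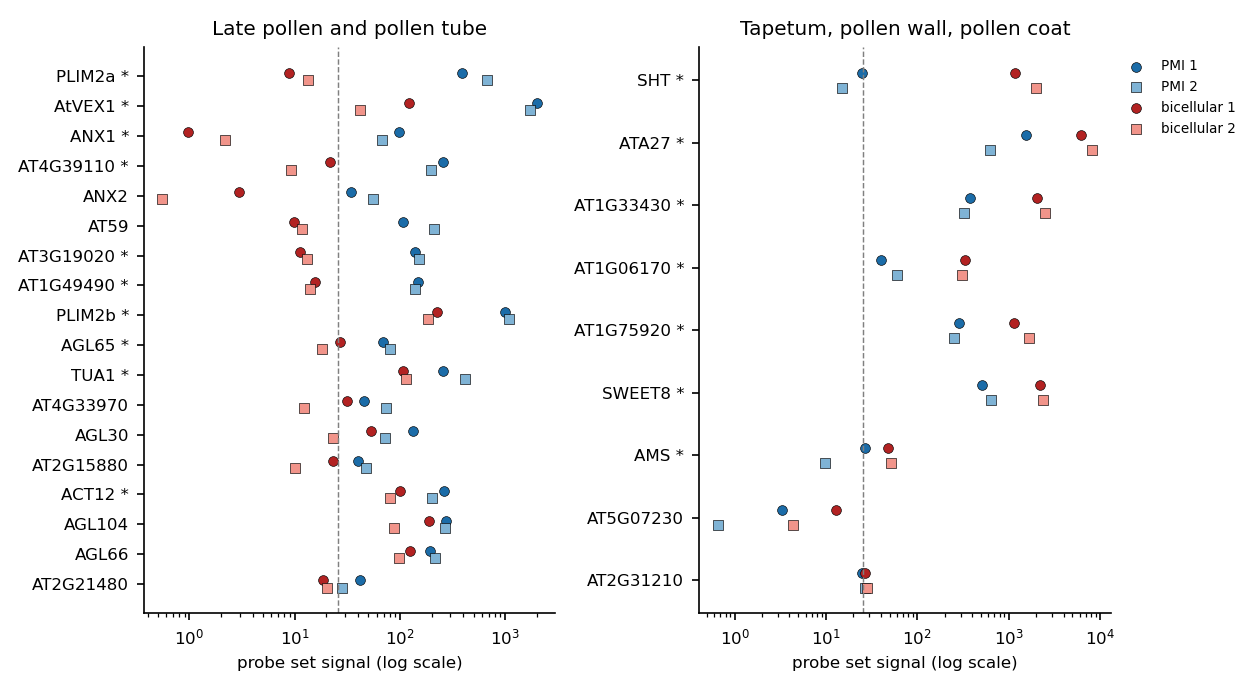
Signal (log axis) of the tested late pollen genes (left) and of the tested tapetum, pollen wall and pollen coat genes (right) in the 4 wild-type arrays, blue for PMI and red for bicellular; an asterisk marks a called gene and the dashed line is the low-signal limit of 25.5. In each late pollen gene both PMI points lie to the right of both bicellular points. The order is turned in the called tapetum and pollen coat genes. Of all tested probe sets 62.3% had non-overlapping arrays, and every called probe set did.

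MGH3, a histone H3 variant of the male germ line and the single measured gene of its list of 11, had 713 and 496 at PMI and 173 and 78.6 at bicellular, a fall of 2.33 ± 0.52 (adjusted p = 0.0104). In the arrays labelled PMII its signals were 22.0 and 19.1. MGH3 lost its call without PMI replicate 1 (adjusted p = 0.0758) or bicellular replicate 2 (0.108). Of the 7 tested RALF peptide genes, which encode small secreted signals, 2 fell and 2 rose (57.1% called, beside 18.1% of all probe sets). RALFL25 had 740 and 823 at PMI and 5.51 and 17.4 at bicellular, a fall of 5.99 ± 1.15 (adjusted p = 0.00491). RALFL26 had 202 and 314 at PMI and 3.52 and 3.63 at bicellular, a fall of 5.45 ± 0.96 (adjusted p = 0.00326). RALFL31, by contrast, had 38.1 and 53.1 at PMI and 102 and 162 at bicellular, a rise of 1.47 ± 0.27 (adjusted p = 0.00366). RALFL24 rose by 1.54 ± 0.37 (adjusted p = 0.0138) and lost its call without PMI replicate 2 (0.0862) or either bicellular array (0.0529 and 0.102). The family therefore split in direction within the same 4 arrays.

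Pollen actins and pollen LIM genes fell, while tubulins changed both ways. All 4 tested members of a list of actins, profilins and pollen LIM genes fell, beside 18.1% called among all tested probe sets. Besides PLIM2a and PLIM2b, ACT12 had -1.35 ± 0.34 (adjusted p = 0.0173) and ACT11 -0.92 ± 0.28 (adjusted p = 0.0401), both being actins of reproductive tissue. The other 3 tested LIM genes had WLIM1 at 0.19 (adjusted p = 0.679), WLIM2a at 0.54 (0.0918) and WLIM2b at 0.05 (0.882). Of the 4 called, only PLIM2a and PLIM2b were called without PMI replicate 1, PMI replicate 2 or bicellular replicate 2, where the count was 2. NET2D, an actin-binding protein, had 223 and 215 at PMI and 65.5 and 73.2 at bicellular, a fall of 1.63 ± 0.24 (adjusted p = 0.00127). NET2D was the single call among 8 tested NET genes (12.5%, below the 18.1% of all tested probe sets), 5 of which had positive changes. The myosins XIC (-2.26 ± 0.50, adjusted p = 0.00983) and XIJ (-1.54 ± 0.31, adjusted p = 0.00597) fell too. They were 2 of 5 tested motors of class XI that move cargo along actin (40%, beside 18.1% of all probe sets). Neither myosin was called without bicellular replicate 2 (adjusted p = 0.0900 and 0.0623), and XIC was not without either PMI array (0.0543 and 0.0555). Among 7 tested tubulins 4 were called (57.1%, beside 18.1% of all probe sets). TUA1, an alpha-tubulin of pollen, fell by 1.53 ± 0.35 (adjusted p = 0.0117) and TUB1 by 1.1 ± 0.26 (adjusted p = 0.0125). TUB6 rose by 0.87 ± 0.19 (adjusted p = 0.00856) and TUB7 by 0.73 ± 0.21 (adjusted p = 0.0326). None of the 4 tubulin calls held without bicellular replicate 2 (adjusted p = 0.0642, 0.0965, 0.0993 and 0.229 in that order). Without PMI replicate 1, TUB1 (0.0819), TUB6 (0.0662) and TUB7 (0.0875) were not called; without PMI replicate 2, TUA1 (0.108) and TUB7 (0.149) were not; and without bicellular replicate 1, TUA1 (0.0604) and TUB7 (0.0508) were not.

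Genes for protection against drying and cold were lower at bicellular. Of 7 tested late embryogenesis abundant (LEA) and dehydrin genes, whose products guard cells that lose water, 6 fell and none rose, with a median of -2.06. The called share was 85.7%, beside 18.1% of all tested probe sets. LEA18 had 211 and 177 at PMI and 5.66 and 0.611 at bicellular, a fall of 5.37 ± 0.95 (adjusted p = 0.00326). COR15B, which encodes a cold-regulated protein, had 729 and 586 at PMI and 143 and 168 at bicellular, a fall of 2.06 ± 0.21 (adjusted p = 0.000140). COR47, a dehydrin gene, had 2272 and 2899 at PMI and 933 and 839 at bicellular, a fall of 1.53 ± 0.20 (adjusted p = 0.000610). The LEA18 signal was lost below the low-signal limit in the bicellular arrays, while COR15B and COR47 stayed well above it. These 3 kept their calls when any single array was left out. LEA4-5 (-4.52 ± 1.08, adjusted p = 0.0139), LTI30 (-2.67 ± 0.72, adjusted p = 0.0241) and COR15A (-0.97 ± 0.26, adjusted p = 0.0231) were not called without PMI replicate 1 (0.0718, 0.139 and 0.141) or PMI replicate 2 (0.0764, 0.108 and 0.0505), where 3 members passed. Without bicellular replicate 1 LTI30 (0.0673) and COR15A (0.201) were not called, nor were LEA4-5 (0.135) and LTI30 (0.168) without bicellular replicate 2.

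More CHX and SWEET transporters fell than rose. Of 5 tested cation/H+ exchangers of the CHX family 3 fell and none rose, with a median of -2.83. The called share was 60%, beside 18.1% of all tested probe sets. CHX20 had 108 and 126 at PMI and 15 and 14.1 at bicellular, a fall of 2.83 ± 0.32 (adjusted p = 0.000227). CHX19 had 1701 and 1258 at PMI and 424 and 150 at bicellular, a fall of 2.52 ± 0.51 (adjusted p = 0.00637). CHX15 fell by 4.01 ± 0.84 (adjusted p = 0.00737), from 101 and 77.3 to 5.24 and 1.97. Without bicellular replicate 2, CHX20 alone was called (CHX19 0.0715, CHX15 0.0603), and CHX15 was not without PMI replicate 1 (0.0579). GTR2, a transporter of glucosinolates, had 270 and 450 at PMI and 26.6 and 28 at bicellular, a fall of 3.57 ± 0.30 (adjusted p = 4.37e-05).

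Among sugar exporters that the annotation names SWEET, 1 of 13 tested members rose and 5 fell (46.15% called, beside 18.1% of all probe sets). AtVEX1 (SWEET5), given above with a fall of 4.66, is annotated by its other name and comes on top of these 5. SWEET8, also named RUPTURED POLLEN GRAIN1 and needed for microspore integrity, had 517 and 649 at PMI and 2194 and 2357 at bicellular, a rise of 1.97 ± 0.26 (adjusted p = 0.000639). SWEET13 had 162 and 469 at PMI and 47 and 54.1 at bicellular, a fall of 2.40 ± 0.73 (adjusted p = 0.0399). SWEET14 had 106 and 303 at PMI and 28.9 and 53.3 at bicellular, a fall of 2.13 ± 0.63 (adjusted p = 0.0351). The PMI arrays of these last genes lay far apart. SWEET11 fell by 1.48 ± 0.41 (adjusted p = 0.0273), SWEET7 by 1.01 ± 0.27 (0.0236) and SWEET4 by 0.97 ± 0.26 (0.0236). AtVEX1 kept its call in each alternative run (highest adjusted p = 0.0325). None of the other 5 decreases was called without the variance trend (0.0503 to 0.0945) or without bicellular replicate 2, 1 was called without PMI replicate 2 or bicellular replicate 1, and 2 without PMI replicate 1; SWEET8 was called in each of these settings.

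Of 10 tested expansins, which loosen cell walls, 4 fell and 1 rose (50% called, beside 18.1% of all tested probe sets). None of 4 tested pectin methylesterases and none of 4 xyloglucan XTH genes was called, lists too short to set against that share. EXPA24 had 146 and 229 at PMI and 2.74 and 6.74 at bicellular, a fall of 4.79 ± 1.08 (adjusted p = 0.0106). EXPA8 had 94.8 and 169 at PMI and 13.7 and 1.05 at bicellular, a fall of 4.16 ± 0.92 (adjusted p = 0.00934). EXPB5 had -2.56 ± 0.64 (adjusted p = 0.0172), and EXPA4 turned the other way with 1.89 ± 0.43 (adjusted p = 0.0108), from 16.2 and 50.6 to 93.6 and 137. Without PMI replicate 2 no decrease was called (EXPA24 0.0847, EXPA8 0.0863, EXPB5 0.161), and 1 was without bicellular replicate 1 (EXPA8) and 1 without bicellular replicate 2 (EXPA24). EXPA4 was not called without PMI replicate 1 (0.0817) or bicellular replicate 2 (0.0981). The endoglucanases GH9B17 (-3.72 ± 0.70, adjusted p = 0.00424) and GH9A4 (-3.51 ± 0.72, adjusted p = 0.00690) fell. They were 2 of 9 tested (22.2%), near the 18.1% of all tested probe sets. GH9A4 was not called without PMI replicate 2. ADPG1, a polygalacturonase that acts in anther opening and the single measured gene of a list of 23 dehiscence and jasmonate genes, had 236 and 273 at PMI and 14.6 and 28 at bicellular, a fall of 3.50 ± 0.62 (adjusted p = 0.00316). GUT2 acts in making xylan and was the single call among 4 tested genes of the secondary wall list (25%). It rose from 58.8 and 34.9 to 123 and 206 (1.76 ± 0.43, adjusted p = 0.0144). It was not called without PMI replicate 2 (0.114) or bicellular replicate 2 (0.145). On the same list IRX15-L had 113 and 101 at PMI and 392 and 440 at bicellular (1.94 ± 0.78, adjusted p = 0.108), and IRX15 had 1.50 ± 0.95 (adjusted p = 0.308). Fitted on the compared arrays alone, both passed (0.00052 and 0.034).

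The decreases with the largest fitted log2 changes took genes from high signal to near or below the low-signal limit, where the order of the fitted values carries little information. SBT4.13, a subtilase (a secreted serine protease), had 3675 and 4631 at PMI and 6.49 and 12.7 at bicellular, a fall of 8.50 ± 0.94 (adjusted p = 0.000211). Against the low-signal limit of 25.5 it was at least 162-fold lower. AT3G05610 had 355 and 544 at PMI and 0.649 and 0.804 at bicellular, a fall of 7.22 ± 1.22 (adjusted p = 0.00259), or at least 17.2-fold. AT4G02250 had 1763 and 1155 at PMI and 24.3 and 2.70 at bicellular (-6.97 ± 1.43, adjusted p = 0.00667), at least 56.0-fold lower, and lost its call without bicellular replicate 2 (0.0707) and with a robust variance model (0.0578). Others with large fitted decreases, AT1G71680 (-6.67), AT5G62750 (-6.64), AT5G07430 (-6.52), AT5G42170 (-6.43) and AT3G62710 (-6.41), carry no gene name in the annotation. AT5G07430 lost its call without bicellular replicate 2 (adjusted p = 0.0752) and with a robust variance model (0.0603). Among the decreases of smallest adjusted p, AT2G18340 had 269 and 261 at PMI and 5.80 and 6.04 at bicellular (-5.03 ± 0.40, adjusted p = 3.24e-05). MGL, methionine gamma-lyase, which breaks down methionine, had 1175 and 1630 at PMI and 201 and 230 at bicellular (-2.67 ± 0.28, adjusted p = 0.000140). LCR72, a defensin-like cysteine-rich peptide, had 420 and 412 at PMI and 4.22 and 7.73 at bicellular (-5.71 ± 0.62, adjusted p = 0.000196). In each of these last 3 genes, picked for a small adjusted p, both PMI arrays lay far above both bicellular arrays.

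Tapetum, pollen wall and pollen coat transcripts were higher in the bicellular arrays. Of 35 tapetum and pollen wall genes listed, 10 had a named probe set, of which 7 passed the filter. Of these 7, 5 rose and none fell (71.4% called, beside 18.1% of all probe sets), and the median change was 1.97. SHT, the spermidine hydroxycinnamoyl transferase that makes phenolamides of the pollen coat, had 24.6 and 15.1 at PMI and 1163 and 1993 at bicellular, a rise of 6.15 ± 0.55 (adjusted p = 6.67e-05). Against the low-signal limit it was at least 59.7-fold higher. SHT lay under that limit in both PMI arrays and reached 3177 and 3440 in the arrays labelled PMII. AT1G33430 had 382 and 322 at PMI and 2068 and 2530 at bicellular (2.70 ± 0.27, adjusted p = 0.000137). AT1G06170 had 40.3 and 60.6 at PMI and 333 and 311 at bicellular (2.65 ± 0.27, adjusted p = 0.000140). SWEET8, given above, is on this list too. AMS, a transcription factor of the tapetum, had 27.0 and 9.84 at PMI and 47.6 and 51.5 at bicellular (1.46 ± 0.41, adjusted p = 0.0284). It was not called without PMI replicate 2 (0.215), without either bicellular array (0.0928 and 0.141), without the variance trend (0.0525) or from the compared arrays alone (0.0751). AT5G07230 had 3.34 and 0.654 at PMI and 12.8 and 4.34 at bicellular (1.31 ± 0.75, adjusted p = 0.256) and reached 396 and 378 in the arrays labelled PMII. AT2G31210 had 0.09 ± 0.50 (adjusted p = 0.930).

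Both measured pollen coat genes of the 13 listed rose, beside 10.8% called higher among all tested probe sets. ATA27, a beta-glucosidase of the tapetum, had 1571 and 628 at PMI and 6226 and 8201 at bicellular, a rise of 2.84 ± 0.38 (adjusted p = 0.000601). AT1G75920 had 284 and 256 at PMI and 1143 and 1686 at bicellular, a rise of 2.35 ± 0.29 (adjusted p = 0.000373). ATA27 was already bright in the PMI arrays, where its replicates differed more than at bicellular.

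The largest increases by size were mostly of genes with no name in the annotation. AT5G16960 had 30.8 and 2.91 at PMI and 1264 and 2053 at bicellular, a rise of 6.95 ± 0.79 (adjusted p = 0.000235). AT1G30020 had 64.9 and 21.8 at PMI and 2146 and 3211 at bicellular (6.03 ± 0.55, adjusted p = 6.67e-05). AT5G48210 (5.86), AT5G13380 (5.64), AT5G62080 (5.49) and AT5G65205 (5.25) followed SHT and AT1G30020. AT1G68875 reached 4471 and 5977 at bicellular from 306 and 86.3 at PMI (4.97 ± 0.57, adjusted p = 0.000242). AT3G13610, which encodes the coumarin enzyme F6'H1, had 5.12 and 17.9 at PMI and 258 and 248 at bicellular (4.39 ± 0.60, adjusted p = 0.000729). The smallest adjusted p among increases belonged to AT1G44970, with 34.5 and 20.9 at PMI and 699 and 534 at bicellular (4.40 ± 0.24, adjusted p = 4.32e-06). SBT5.4, a subtilase like SBT4.13, rose where that gene fell, with 73.9 and 81.3 at PMI and 806 and 557 at bicellular (3.08 ± 0.21, adjusted p = 1.23e-05). The SKU5-similar gene sks18, whose family resembles multicopper oxidases, had 153 and 83.7 at PMI and 831 and 1001 at bicellular (2.99 ± 0.36, adjusted p = 0.000321).

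Calls among photosynthesis genes were increases. Of all tested probe sets 18.1% were called and 10.8% were called higher. The photosystem share lay between these values, and the plastid-encoded share lay below both. Of 31 tested nuclear photosystem and carbon fixation genes 28 had positive changes and 5 rose (16.1%), none fell, and the median was 0.71 against 0.14 over all. PRK, phosphoribulokinase of the Calvin cycle, had 167 in both PMI arrays and 403 and 438 at bicellular, a rise of 1.32 ± 0.25 (adjusted p = 0.00463). ATPC1, the gamma subunit of the plastid ATP synthase, had 340 and 431 at PMI and 796 and 857 at bicellular (1.1 ± 0.31, adjusted p = 0.0272). Of the 14 tested chlorophyll and tetrapyrrole genes 3 rose (21.4%), of which HEMB1 had 0.88 ± 0.23 (adjusted p = 0.0195). Of 67 tested plastid-encoded genes 4 rose (5.97%) and none fell, with a median of 0.31, and all 4 encode ribosomal proteins (rpl36, rps2, rpl22 and rpl16, from 0.97 to 0.74). With median centring, and likewise without the variance trend, 1 photosystem gene and no plastid-encoded gene was called. The photosystem calls numbered 2 without PMI replicate 1, 3 without PMI replicate 2 and 1, PRK, without either bicellular array. No chlorophyll gene passed without any single one of these 4 arrays, and no plastid-encoded gene passed without PMI replicate 2 or either bicellular array. ATPC1 was lost without any single one of the 4 arrays (0.0654 to 0.152).

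**Figure D4:**
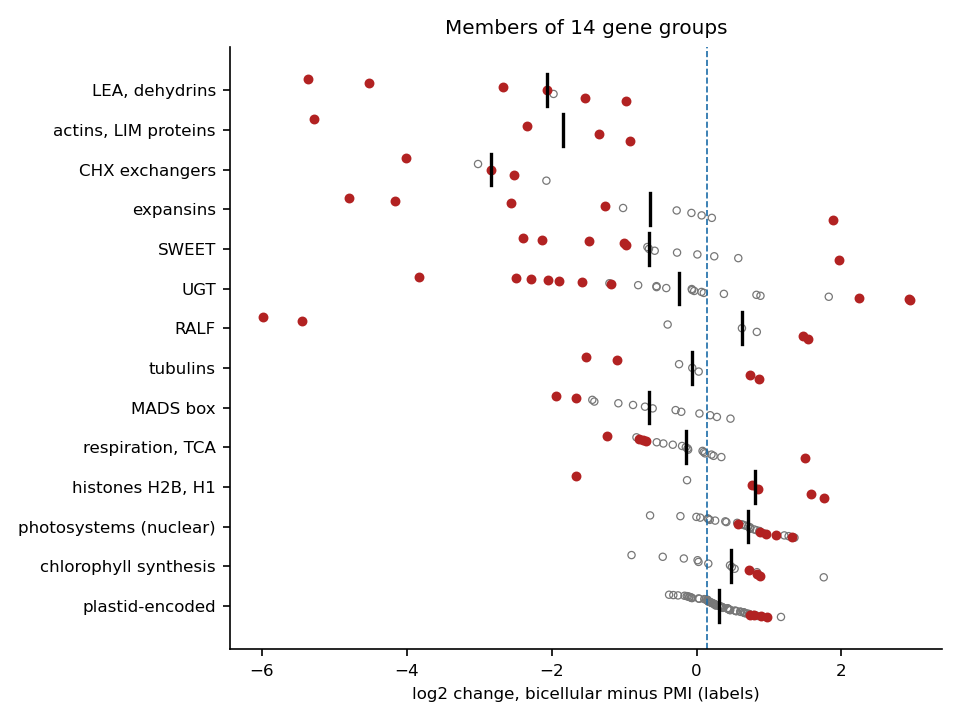
Log2 change from PMI to bicellular of each tested member in 14 gene groups; filled red points are called, open points are not, black bars are group medians and the dashed blue line is the median of all tested probe sets (0.14). LEA genes, actins with LIM proteins and CHX exchangers lie left of that line, photosystem genes mostly right of it, and the RALF, tubulin, expansin and UGT groups hold calls on both sides.

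Histone, cell division and metabolic genes changed in both directions. Of 6 tested H2B and H1 histone genes 4 rose and 1 fell (83.3% called, beside 18.1% of all tested probe sets). HTB2 had 53.6 and 62.1 at PMI and 162 and 248 at bicellular (1.76 ± 0.29, adjusted p = 0.00251), and HTB1 had 138 and 85.4 at PMI and 299 and 363 at bicellular (1.58 ± 0.27, adjusted p = 0.00297). HIS1-3, a linker histone, had -1.67 ± 0.50 (adjusted p = 0.0372) and was not called without any single one of the 4 arrays (0.0648 to 0.226) or without the low-signal filter (0.0642). Without PMI replicate 2 or bicellular replicate 2 only HTB1 and HTB2 of these histones were called. AUR1, an Aurora kinase of mitosis, had 185 and 199 at PMI and 83.0 and 80.6 at bicellular, a fall of 1.21 ± 0.25 (adjusted p = 0.00637). ATMAP65-6, a microtubule-binding protein, had 113 and 101 at PMI and 231 and 259 at bicellular, a rise of 1.17 ± 0.22 (adjusted p = 0.0041). These were the only calls among 19 tested mitosis and spindle genes (10.5%), below the 18.1% of all tested probe sets.

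Of 19 tested respiration genes 4 fell and 1 rose (26.3% called, beside 18.1% of all tested probe sets). The decreases were led by the cytochrome c gene CYTC-2 (1761 and 1486 to 759 and 624, -1.23 ± 0.20, adjusted p = 0.00189). The riser was ACLA-2, a subunit of ATP-citrate lyase, which makes acetyl-CoA in the cytosol. It had 214 and 225 at PMI and 602 and 639 at bicellular (1.49 ± 0.17, adjusted p = 0.000276). Without PMI replicate 1 or bicellular replicate 2, CYTC-2 was the only one of the 4 decreases called, and without PMI replicate 2 there were 2. In starch metabolism PPDK, pyruvate orthophosphate dikinase, had 237 and 426 at PMI and 20.3 and 26.5 at bicellular (-3.65 ± 0.67, adjusted p = 0.00393). The starch branching enzyme SBE2.2 had 66.0 and 97.0 at PMI and 217 and 260 at bicellular (1.54 ± 0.30, adjusted p = 0.00491), a call lost without bicellular replicate 2 (0.0508). Of 24 tested UDP-glycosyltransferases 7 fell and 3 rose (41.7% called, beside 18.1% of all tested probe sets). UGT74F1, which glucosylates salicylic acid, had 30.8 and 41.5 at PMI and 257 and 322 at bicellular (2.93 ± 0.64, adjusted p = 0.00875). UGT74D1 had 355 and 380 at PMI and 58.1 and 69.2 at bicellular (-2.49 ± 0.48, adjusted p = 0.00500). Without bicellular replicate 2 none of the 3 increases was called (UGT74F1 0.0737), and without PMI replicate 1, PMI replicate 2 or bicellular replicate 1 the decreases numbered 3, against 4 without bicellular replicate 2. UGT74F1 was also lost without PMI replicate 1 (0.0575), and UGT74D1 kept its call in each case.

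TRM, IQD, glutathione transferase, carboxypeptidase-like and autophagy genes had called members at shares from 7.69% to 23.8%, beside 18.1% of all probe sets. TRM24, a TON1 recruiting motif protein, had 0.645 and 4.2 at PMI and 42.4 and 38.3 at bicellular (3.31 ± 0.54, adjusted p = 0.00211), and TRM28 was the other call among 10 tested (1.63 ± 0.32, adjusted p = 0.00518; 0.0507 without bicellular replicate 2). IQD31, of a calmodulin-binding family, had 138 and 154 at PMI and 360 and 447 at bicellular (1.44 ± 0.22, adjusted p = 0.00127), the single call among 13 tested. GSTU26, a glutathione transferase, had 56.0 and 56.2 at PMI and 203 and 144 at bicellular (1.57 ± 0.30, adjusted p = 0.00454), the single call among 8 tested. Each of these genes was lower in both PMI arrays than in either bicellular array, as was every probe set called as an increase. Of 21 tested serine carboxypeptidase-like genes 4 rose and 1 fell, led by scpl29, which had 286 and 293 at PMI and 1055 and 1144 at bicellular (1.92 ± 0.29, adjusted p = 0.00138). The rises numbered 2 without PMI replicate 1 and 1 without bicellular replicate 2. ATG8H, an autophagy protein, had 522 and 600 at PMI and 207 and 144 at bicellular, a fall of 1.69 ± 0.31 (adjusted p = 0.00366), and 2 of 10 tested autophagy genes fell.

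Transcription factors were called in 2 of 14 tested MADS-box, 1 of 8 bZIP, 1 of 4 bHLH, 0 of 4 WRKY and 0 of 1 NAC genes, beside 18.1% of all probe sets. AGL18, a MADS-box factor expressed in pollen, had 550 and 595 at PMI and 175 and 123 at bicellular, a fall of 1.95 ± 0.35 (adjusted p = 0.00329). AGL65 fell by 1.66 ± 0.47 (adjusted p = 0.0298), and these were the calls among 14 tested MADS-box genes. AGL65 was not called without any single one of the 4 arrays (0.0618 to 0.183) or without the variance trend (0.0501). Without either ms35 PMII array 5 MADS-box genes were called lower. BZIP34, 1 of 8 tested bZIP factors and needed for pollen wall and lipid metabolism, had 33.8 and 48.8 at PMI and 1.24 and 1.03 at bicellular (-3.67 ± 1.13, adjusted p = 0.0411). Its call was lost without any single one of the 4 arrays (0.119 to 0.213) and with a pseudocount of 1 (0.0537). Of 4 tested bHLH genes bHLH115 rose by 0.68 ± 0.21 (adjusted p = 0.0400) and lost its call without any single one of the 4 arrays (0.0733 to 0.190), with median centring (0.0831) and in other settings. No MYB gene had a named probe set.

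The same step was then set against ms35, whose arrays are different ones, so that the difference could be tested directly. In ms35, 434 probe sets were called between the same labelled stages (2.64%). The step differed between the lines for 16 probe sets (0.0972%; 1457 at an unadjusted p under 0.05), all with the more positive step in wild type, and 8 of them had a single named gene. AT3G27200 had 439 and 440 at PMI and 1910 and 2349 at bicellular in wild type, against 318 and 388 and then 32.3 and 50.5 in ms35. Its step was 2.26 ± 0.30 in wild type and -3.05 ± 0.30 in ms35, a difference of 5.31 ± 0.42 (adjusted p = 0.000390), so the lines moved in opposite directions. AT3G06035 had 157 and 114 at PMI and 1089 and 1128 at bicellular in wild type, and 318 and 374 and then 344 and 294 in ms35 (difference 3.15 ± 0.34, adjusted p = 0.00488). AT1G44970, the increase of smallest adjusted p, rose in both lines, by 4.40 ± 0.24 in wild type and 1.95 ± 0.24 in ms35 (difference 2.45 ± 0.34, adjusted p = 0.0280). AT1G66810, the zinc finger gene AtC3H14, had 20.4 and 37.6 at PMI and 377 and 439 at bicellular in wild type, and 34.0 and 21.3 and then 15.8 and 1.4 in ms35 (difference 5.62 ± 0.87, adjusted p = 0.0427). AT2G27740 rose from 89.4 and 76.6 to 983 and 1076 in wild type and lay between 1.95 and 4.97 in all 4 ms35 arrays (difference 3.45 ± 0.53, adjusted p = 0.0427). AT3G23840, whose listed synonym is CER26-LIKE, had a difference of 2.89 ± 0.41 (adjusted p = 0.0280) and AT3G45850 one of 2.07 ± 0.31 (adjusted p = 0.0367). ACLA-2 went from 214 and 225 to 602 and 639 in wild type and from 246 and 214 to 218 and 222 in ms35 (difference 1.55 ± 0.24, adjusted p = 0.0464). Without single arrays the number of probe sets that differed was lowest without ms35 PMI replicate 2 (2) and highest without ms35 bicellular replicate 1 (30, of which 13 were among the 16). There were 7 and 5 without the wild-type PMI arrays, 4 and 3 without the wild-type bicellular arrays, 4 without either wild-type PMII array and 3 without ms35 PMI replicate 1. AT3G27200 was called at an adjusted p under 0.05 in each alternative run (highest 0.0383). AT3G06035 was lost without the variance trend (0.105) and without ms35 PMI replicate 2 (0.0569), and the other 6 genes were each lost in 8 to 17 settings.

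**Figure D5:**
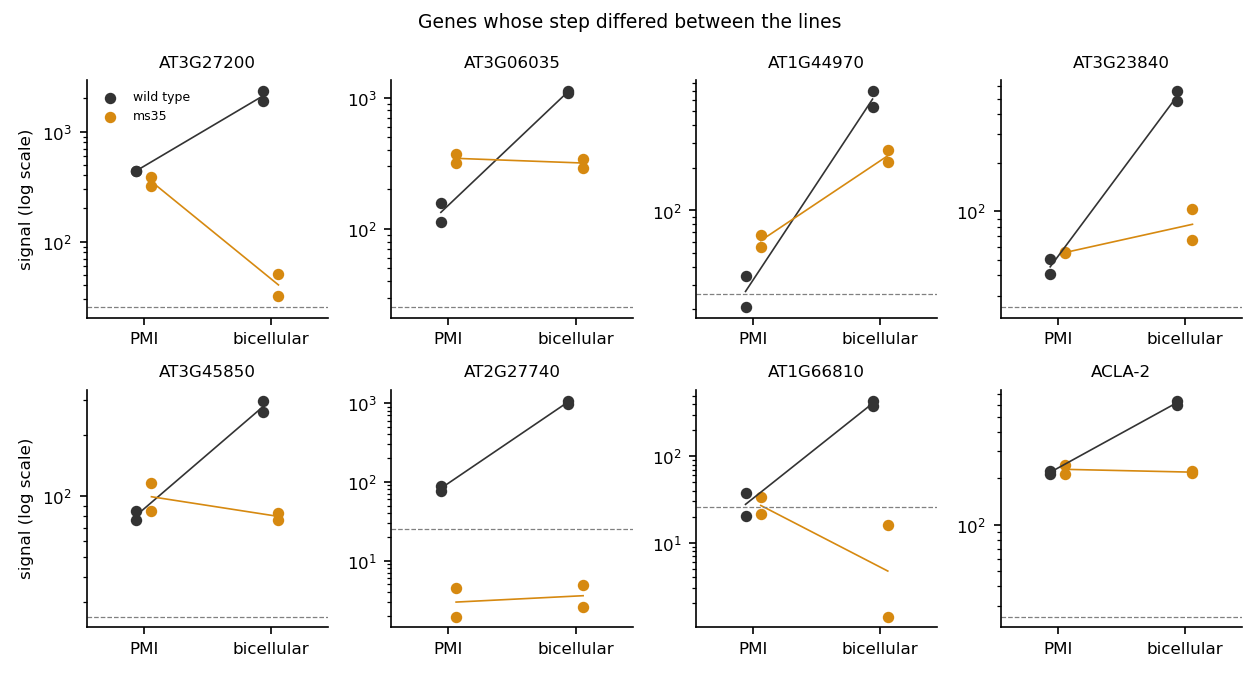
Signal (log axis) at PMI and bicellular in wild type (dark) and ms35 (orange) for the 8 single-gene probe sets whose step differed between the lines; points are arrays, lines join the geometric means and the dashed line is the low-signal limit of 25.5. The wild-type bicellular points are above both ms35 bicellular points in each of the 8 panels.

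No tested late pollen or tapetum gene was called for a difference in its step between the lines. For MGH3 the step was -2.33 ± 0.52 in wild type and -0.71 ± 0.52 in ms35 (difference -1.62 ± 0.74, adjusted p = 0.563). For SHT the steps were 6.15 in wild type and 4.86 in ms35 (difference 1.29 ± 0.78, adjusted p = 0.675). A p that misses the threshold does not show that the steps were alike. The summed late pollen signal of ms35 was 3525 and 4488 at PMI and 956.0 and 2221 at bicellular. The ms35 bicellular replicate 2 thus lay above its partner, and it had a GAPDH ratio of 2.37; the part of either in these differences was not tested, and without that array 15 probe sets differed, 7 of them among the 16.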

How the data were processed

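RNA from anthers with filaments was hybridised to 12 Affymetrix ATH1 arrays. The deposited values are linear signal intensity per probe set, made by the authors with MAS5 in GCOS per the submitters' processing notes (versions not given in the sources used here), and each array's 2% trimmed mean is 100.01. From these, log2(signal + 2.2288), the pseudocount being the 10th percentile, was computed. Probe sets above 25.507 (the 40th percentile) on at least 2 of 12 arrays were tested, 16464 of 22746 after 64 controls were left out. limma 3.58.1 in R 4.3.3 fitted 6 group means over all 12 arrays (6 residual degrees of freedom), the variance following mean intensity and p-values adjusted by Benjamini-Hochberg over all tested probe sets. Fold changes are on the log2(signal + pseudocount) scale, which understates low genes. The model was run on simulated data with independent noise and few changed probe sets. The real arrays differ from that setting, so the run does not vouch for the calls given here. The number of arrays limits the precision.

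Of 22746 probe sets 13513 had 1 gene, 503 several and 8730 none listed here, and names were updated through the TAIR10.1 gene table for 13436. Single-gene probe sets alone were named. Members and lists were chosen with earlier results of these data known; 37 families were added after the annotation was seen. From each list up to 6 called members by size of change and up to 3 uncalled members by mean level could be named, with the largest and smallest-p probe sets and those whose step differed. Replicate numbers were not used to pair the arrays in the main fit. Same-number deviations correlated at 0.01 between the 2 wild-type groups, which cannot show whether same-number arrays were handled together.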

Additional observations from a re-analysis of the deposited data

Results flagged for a closer look

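The step from PMI to bicellular differed between wild type and ms35, by the direct test of the difference, for 16 probe sets, 8 of them with a single gene. The log2 difference, wild type minus ms35, was 5.31 for AT3G27200, 3.15 for AT3G06035, 2.45 for AT1G44970, 2.89 for AT3G23840, 2.07 for AT3G45850, 3.45 for AT2G27740, 5.62 for AT1G66810 and 1.55 for ACLA-2. With 2 arrays in each group, no array could be tested for standing apart from its group.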

How the results depend on the processing

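Each result was recomputed under 26 alternatives, 12 of which left out 1 array. The step count of 2977 was 2210 with a change of at least 2-fold also required, 2226 without the variance trend, 3614 with array weights and 1235 at an adjusted p under 0.01 (732 higher, 503 lower). Leaving out 1 array gave 1056 to 3159 calls, 608 to 1888 higher and 447 to 1284 lower. The 16 probe sets whose step differed between the lines became 9 with a pseudocount of 1, 37 with the 30th percentile, 1 without the trend, 26 with robust variances, 5 from the compared arrays alone, 3 at an adjusted p under 0.01, and 2 to 30 without 1 array. With the replicate number as a block 3141 probe sets were called (1866 higher, 1275 lower) and 24 differed between the lines; same-number deviations correlated between -0.13 and 0.18 over 15 pairs of groups, above 0.1 in 4. The setting without both arrays of highest GAPDH ratio was chosen after seeing the data. Of 330 named results 165 were called; 78 of these kept direction and call in every alternative but the stricter thresholds, and 0 reversed. Signals under 25.5 carry little information on the size of a change. The cause of these shifts was not tested.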
